A study of Arabidopsis thaliana with 33 samples.

Results

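The arp6;brm shoots were compared with arp6 shoots, gene by gene, in RNA isolated from nuclei of Arabidopsis thaliana. The series as a whole covered H2A.Z ChIP-seq, nucleosome mapping and RNA-seq of shoots with 4 to 5 leaves, grown on soil in 16 h of light and 8 h of dark. RNA-seq covered the double mutant arp6-1;brm-1 (arp6;brm), arp6-1 alone, brm-1 alone and wild type (WT), each with 3 biological replicates. The double mutant and arp6 share the arp6-1 allele, so the comparison of these 2 groups asks what loss of BRM does where deposition of H2A.Z is already impaired. Genomic DNA of arp6, from rosette leaves of 50 pooled plants, was also sequenced to find deletions, and 1545 deletion calls covering 5.88 Mb were deposited.

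ARP6 is an actin-related subunit of the SWR1 complex, which exchanges histone H2A for the variant H2A.Z in nucleosomes near gene starts. SWI/SNF complexes slide or evict nucleosomes, and BRM supplies the ATPase activity for one class of them. In Arabidopsis leaves and shoots, H2A.Z is known for its place at genes that respond to temperature, stress and pathogens, and BRM for its roles in leaf and flower development and in hormone responses. Plants lacking ARP6 flower early, and plants lacking BRM are small with curled leaves.

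The authors deposited a table for each mutant against WT, and each table gave 1 log2 fold change, 1 average log2 CPM (CPM being read counts scaled to a common library total) and 1 p-value per gene. The difference reported here is the log2 fold change of arp6;brm over WT minus that of arp6 over WT, so that WT cancels and a positive value means a higher level in arp6;brm than in arp6. It was taken for every gene listed in both tables whose average log2 CPM reached 1 in each, which kept 13331 genes of 23044 listed in any of the 3 RNA tables. Of 21636 genes listed in both tables, 8305 lay below that minimum, while 716 genes were listed for arp6;brm only and 410 for arp6 only. RefSeq lists 13181 of the 13331 genes as protein coding. The genes nearest the minimum were AT5G12980 and CRLK1, just inside with differences of -0.02 and 0.01, and ILL6 and AT1G64180, just outside with 0.49 and 0.53.

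The tables hold no value for any single library. The depth of the libraries is therefore unknown, no spread between replicates could be computed, and the difference carries no p-value. As a scale of its error, an approximate standard error was read from the deposited p-values of genes at like expression. It ranged from 0.17 for the most expressed genes to 0.41 for the least, with a median of 0.23 on the log2 scale. This is the error of a typical gene at that level. Single genes whose replicates spread more have a larger one, which was not worked out gene by gene here. In what follows a gene is higher or lower where its difference was at least 1 in size, which is 2-fold. Levels in CPM were worked out from the average log2 CPM and the log2 fold changes on the scale of the arp6 table, and their total includes reads that were assigned to no gene. Such reads made up between 66.9% and 70.7% of the counts. Since whole shoots were used, fewer cells of a type and less RNA per cell cannot be told apart.

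The mutated genes and the tissue were examined first. The implied level of BRM was 0.117 CPM in the double mutant and 54.2 CPM in arp6, beside 1.10 CPM in brm and 54.6 CPM in WT. The difference of BRM between arp6;brm and arp6 was -8.86. ARP6 stood at 0.210 CPM in the double mutant and 0.192 CPM in arp6, beside 12.2 CPM in brm and 10.2 CPM in WT, and its difference was 0.13. The leaf markers RBCS1A, a small subunit of Rubisco, and LHCA1, a light-harvesting protein of photosystem I, stood at 4872 and 2191 CPM in the double mutant and at 4616 and 2595 CPM in arp6. None of 3 root hair genes and none of 8 seed genes passed the minimum. Of 9 genes for floral organs only SEP3 passed, with 4.58 CPM in the double mutant, 8.99 in arp6, 0.836 in brm and 0.578 in WT.

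More genes were lower than higher by 2-fold in arp6;brm, relative to arp6. In all, 345 genes (2.59%) were higher and 569 genes (4.27%) were lower in arp6;brm than in arp6, and 12417 genes (93.1%) lay within 2-fold. The median difference was 0.01, with a 95% interval of 0.003 to 0.022 that covers counting error over genes only, and the central 90% of genes lay between -0.93 and 0.80. Differences of at least 2 (4-fold) were fewer still, with 32 genes higher and 108 lower. The share of higher genes among those past 2-fold was 37.7%. That share varied with expression. Among the 667 least expressed genes 3.90% were higher and 0.90% lower, and among the 667 most expressed 1.20% and 3.75% were. When each mutant's level was instead read on the scale of its own table, all differences shifted down together, to a median of -0.14, and the split was 211 higher against 778 lower, or 21.3% higher. WT itself stood 0.149 lower on the scale of the arp6;brm table than on that of the arp6 table, with little variation between genes (SD 0.0044 over 13331 genes), which is the size of this shift. On that scale the medians of the SWI/SNF, circadian clock, photosystem, auxin, XTH and reference groups, which are above 0 as given further on, lie below 0, between -0.14 and -0.02.

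**Figure D1:**
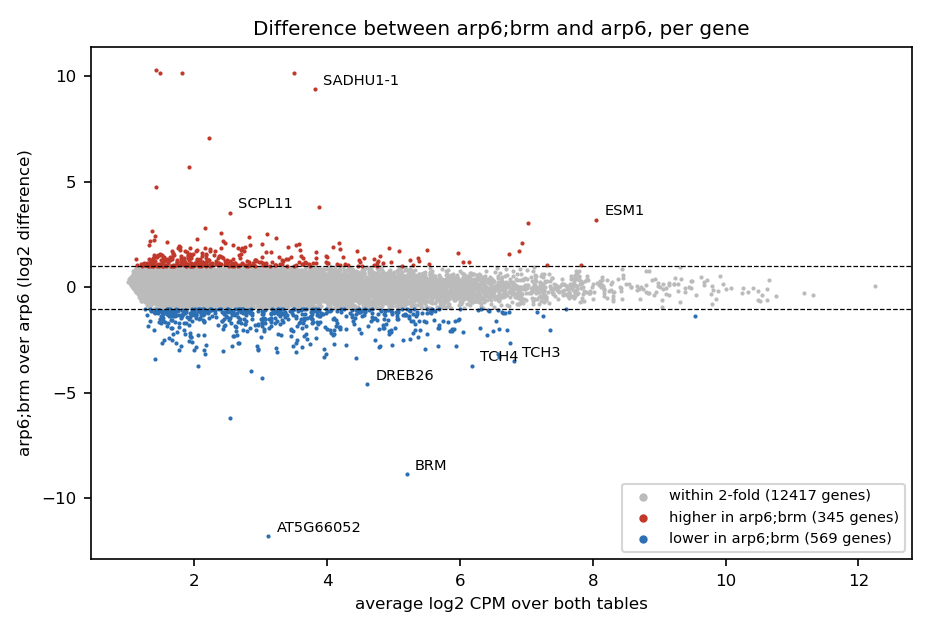
Each point is a gene, with its average log2 CPM over both tables on the x axis and the log2 difference between arp6;brm and arp6 on the y axis, and dashed lines mark 2-fold. Red points (345 genes) are higher and blue points (569 genes) lower in arp6;brm, so the blue points outnumber the red.

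The genes with the lowest differences included BRM itself, several rapidly induced stress and touch genes, and a few transcripts that were nearly lost. Genes are called here where the authors' edgeR adjusted p-value against WT is under 0.05. Among genes called in at least 1 of the 2 tables, the lowest was AT5G66052, at 0.00348 CPM in the double mutant and 12.2 CPM in arp6, beside 20.9 CPM in brm and 13.0 CPM in WT. AT2G32650 stood at 0.0138 CPM in the double mutant and 1.00 CPM in arp6, beside 8.93 CPM in brm and 11.6 CPM in WT. Fold changes of levels this close to 0 depend on the prior count of the software and carry no exact size. AT5G66052 and AT2G32650 were low in arp6;brm but not in brm.

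DREB26, a transcription factor of the AP2/ERF family, had an implied level of 2.34 CPM in the double mutant against 56.6 CPM in arp6, beside 12.4 CPM in brm and 28.3 CPM in WT. Its difference was -4.60. The error of a typical gene understates that of DREB26, for which the authors' deposited table gives a log2 fold change of 1.00 in arp6 with an edgeR adjusted p-value of 0.25. TCH4, a xyloglucan endotransglucosylase that remodels the cell wall and is induced by touch, stood at 16.8 CPM in the double mutant against 218 CPM in arp6, beside 34.5 CPM in brm and 65.0 CPM in WT (difference -3.70). TCH3, a calmodulin-like calcium sensor that is also induced by touch, stood at 27.9 CPM in the double mutant and 310 CPM in arp6, against 339 CPM in brm and 106 CPM in WT. These 3 genes were lowest in arp6;brm of all 4 groups, and DREB26 and TCH4 were highest in arp6.

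WRKY18, a transcription factor of defence responses, followed the pattern of TCH3: 6.41 CPM in the double mutant and 65.2 CPM in arp6, against 68.6 CPM in brm and 18.3 CPM in WT. Either single mutant was above WT, and the double mutant below it. The authors' deposited tables gave WRKY18 log2 fold changes over WT of -1.51 in arp6;brm, 1.83 in arp6 and 1.91 in brm, with edgeR adjusted p-values of 5.4e-05, 5.3e-10 and 9.7e-10. BT5, which carries a BTB and a TAZ domain, stood at 19.3 CPM in the double mutant and 193 CPM in arp6, beside 44.2 CPM in brm and 114 CPM in WT. PHI-1, of the EXORDIUM family of cell wall proteins, stood at 1.28 CPM in the double mutant and 20.3 CPM in arp6, beside 2.70 CPM in brm and 7.06 CPM in WT. The error of a typical gene understates that of PHI-1 as well. Its deposited log2 fold change in arp6 is 1.52, with an edgeR adjusted p-value of 0.079.

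The remaining 3 of the lowest 12 were low wherever BRM was mutated, with or without ARP6. AT1G54740 had 0.774 CPM in the double mutant and 15.1 CPM in arp6, beside 1.09 CPM in brm and 10.4 CPM in WT. AT2G29300 had 0.396 CPM in the double mutant and 5.31 CPM in arp6, beside 0.302 CPM in brm and 6.13 CPM in WT. UGT73C6, a glycosyltransferase that acts on flavonols, had 0.281 CPM in the double mutant and 2.93 CPM in arp6, beside 0.00323 CPM in brm and 4.08 CPM in WT.

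The genes with the highest differences were mostly transcripts nearly lost in arp6 and present in arp6;brm. Of the 12 highest, RefSeq lists 4 as pseudogenes and 2 as long non-coding RNAs, and 10 lie on chromosome 2. AT2G06950, a pseudogene, stood at 20.4 CPM in the double mutant and 0.0180 CPM in arp6, beside 8.39 CPM in brm and 15.6 CPM in WT. SADHU1-1, a retroelement that RefSeq lists as a pseudogene, stood at 17.4 CPM in the double mutant and 0.0255 CPM in arp6, beside 18.4 CPM in brm and 22.1 CPM in WT. AT2G09795, AT2G13970 and AT1G35612 had differences of 10.29, 10.16 and 10.15, and each stood near 0.003 CPM in arp6. AT2G24755, AT2G27402 and AT2G01090 had differences of 7.08, 5.70 and 4.76. In these 8 genes the arp6 group stood apart from the other 3, which all held the transcript.

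ESM1, a protein that steers glucosinolate breakdown in leaves, stood at 141 CPM in the double mutant and 15.2 CPM in arp6, beside 195 CPM in brm and 485 CPM in WT (difference 3.21). AT2G25450 stood at 69.5 CPM in the double mutant and 8.43 CPM in arp6, beside 80.5 CPM in brm and 237 CPM in WT. RLP19, a receptor-like protein, stood at 13.5 CPM in the double mutant and 0.959 CPM in arp6, beside 62.4 CPM in brm and 24.3 CPM in WT. SCPL11, a serine carboxypeptidase-like protein, was the only one of the 12 that was above WT in arp6;brm and below it in arp6 with a call in each table: 16.1 CPM in the double mutant and 1.38 CPM in arp6, beside 11.3 CPM in brm and 5.57 CPM in WT.

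**Figure D2:**
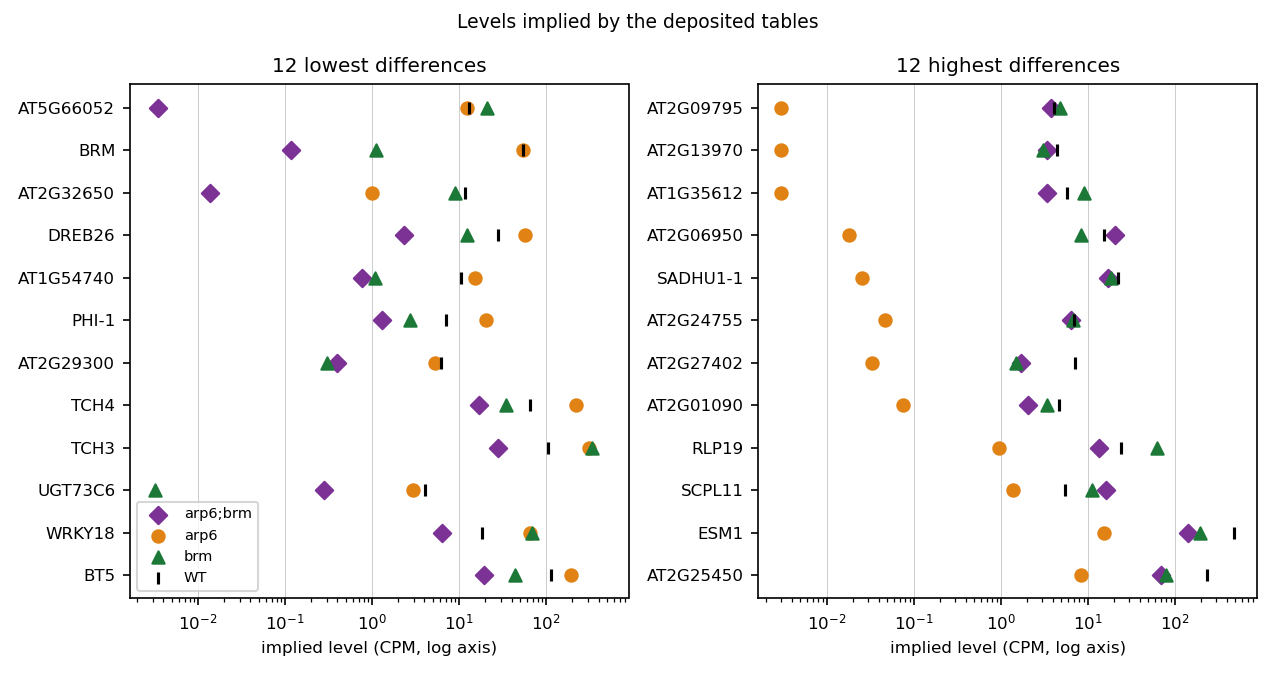
Implied levels in CPM on a log axis for the 12 genes with the lowest differences (left) and the 12 with the highest (right), in arp6;brm (purple), arp6 (orange), brm (green) and WT (black). On the left the purple symbols lie lowest in 10 of 12 genes, the exceptions being AT2G29300 and UGT73C6, which are lowest in brm. On the right the orange symbols lie lowest in all 12.

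The position of these genes was uneven. Of 8 genes with a difference of at least 4, 7 lie on chromosome 2 and 1 on chromosome 1. Chromosome 2 also held 419 of the 1545 deletion calls of arp6, against 295, 214, 144 and 473 on chromosomes 1, 3, 4 and 5. A log2 fold change of -4 or less was given to 27 of the 13331 genes by the authors' deposited table for arp6, 10 of them on chromosome 2, which holds 2038 of the 13331 genes. Of the 27, 16 were higher and 5 lower in arp6;brm than in arp6. The one for arp6;brm held 19 such genes, 14 of them shared with arp6. Whether these genes lie in a deleted stretch of the arp6 line was not tested. Past 2-fold, the chromosomes were more alike: 1.94%, 3.63%, 3.05%, 1.92% and 2.66% of the genes on chromosomes 1 to 5 were higher, and 3.93%, 5.35%, 3.99%, 4.18% and 4.23% were lower.

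**Figure D3:**
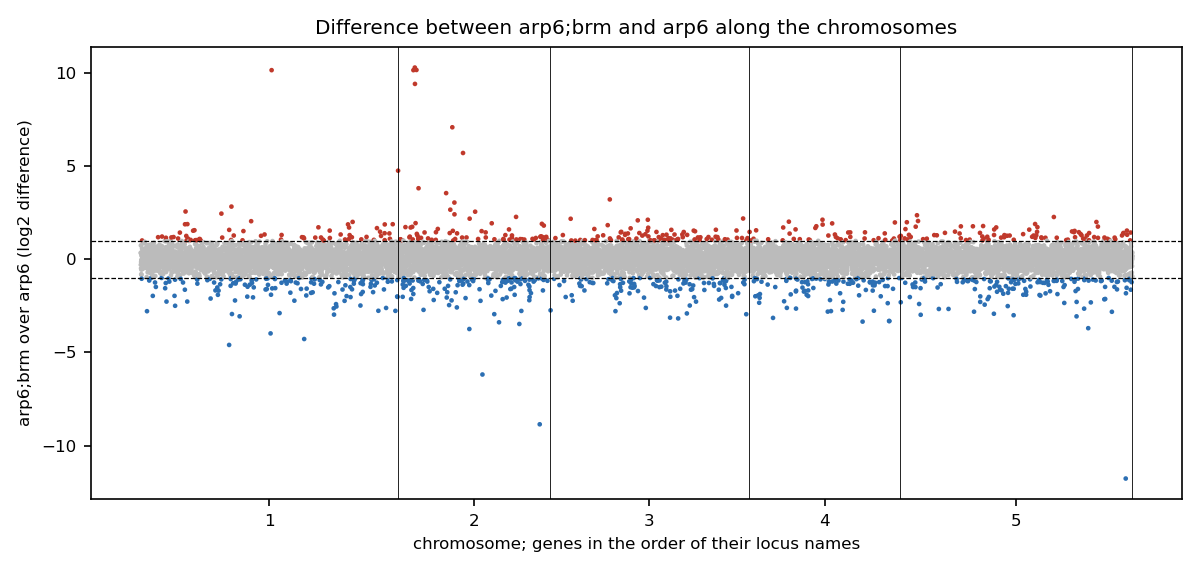
The log2 difference between arp6;brm and arp6 for all 13331 genes in the order of their locus names, chromosome by chromosome, with higher genes in red, lower genes in blue and 2-fold as dashed lines. Of the 8 points at 4 or more, 7 lie on chromosome 2, and points past 2-fold are spread over all 5 chromosomes.

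How each gene stood relative to WT separates several kinds of change. Of the 13331 genes, 979 (7.34%) were called higher and 1289 (9.67%) lower in arp6;brm, and 491 (3.68%) were called higher and 510 (3.83%) lower in arp6. Both calls share libraries with the difference, so the counts that follow describe it and test nothing. Of the 569 lower genes, 261 were called lower in arp6;brm and not called in arp6, 108 were not called in arp6;brm and called higher in arp6, and 72 were called lower in arp6;brm and higher in arp6. Another 30 were called lower in both, 7 higher in both, and 91 in neither.

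The 72 genes that were below WT in arp6;brm and above it in arp6 had median log2 fold changes over WT of -0.98 in arp6;brm and 1.01 in arp6, from the authors' deposited tables. The comparison of brm with WT uses no arp6 or arp6;brm library. It shares the WT libraries with the calls that picked these 72 genes, so it is not independent of those calls. In brm, 16 of the 72 (22.2%) were called higher, 16 (22.2%) lower and 40 were not called. Over all genes the brm calls were 9.51% higher and 9.11% lower. TCH4, TCH3, WRKY18 and BT5 belong to these 72 genes, as do the defence transcription factors WRKY33 and WRKY70. So do the ethylene response factor ERF104 and ZAT10, a zinc finger repressor of stress responses. A further 8 members, chosen after their values were seen, were EXO of the EXORDIUM family, the expansin-like EXLA1, the stress-activated kinase MPK3, the calcium-dependent kinase CPK32, the salicylic acid receptor NPR3, the ubiquitin ligase PUB23, the zinc finger protein SZF1 and CYP707A3, which breaks down abscisic acid. Their differences ranged from -3.18 in EXLA1 to -1.70 in PUB23.

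The opposite crossing was seen in fewer genes. Of the 345 higher genes, 141 were called higher in arp6;brm and not called in arp6, 66 were not called in arp6;brm and called lower in arp6, and 12 were called higher in arp6;brm and lower in arp6. A further 16 were called lower in both, 4 higher in both and 106 in neither. The 12 genes included SCPL11 and, chosen after their values were seen, the leaf hair regulator GL2 (difference 1.88), the expansins EXPA1 (1.71) and EXPA10 (1.51), and CAO (1.20).

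The brm table allows the loss of BRM to be set side by side in plants with and without ARP6, since brm and WT share no library with arp6;brm and arp6. Genes that were lower in brm tended to be lower in arp6;brm than in arp6 as well, while the median of genes that were higher in brm lay near that of all genes. Of 1214 genes called lower in brm (9.11%), 68.7% had a difference below 0 (95% Wilson interval 66.0 to 71.2, counting error only), against 48.9% of all genes, and their median difference was -0.23. Of 1268 genes called higher in brm (9.51%), 53.1% had a difference above 0 (50.3 to 55.8), against 51.1% of all genes, and their median difference was 0.05. For brm itself, the authors' deposited table gave these classes median log2 fold changes of -0.89 and 1.03. On the scale of each table's own levels, 78.1% of the genes called lower in brm lay below 0, against 62.7% of all genes, and 43.5% of those called higher lay above 0, against 37.3% of all genes.

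The medians are given next by the size of the change in brm. Among genes called lower in brm, the median difference was -0.17 where the fall was under 2-fold (733 genes), -0.36 where it was 2- to 4-fold (413 genes) and -0.64 where it was 4-fold or more (68 genes). Among genes called higher in brm, the medians were 0.04 (589 genes), 0.07 (548 genes) and -0.22 (131 genes) for the same sizes. Past 2-fold, 18 genes called lower in brm (1.48%) were higher and 124 (10.2%) were lower in arp6;brm than in arp6. Of the genes called higher in brm, 83 (6.55%) were higher and 114 (8.99%) lower, so that both shares lay above the 2.59% and 4.26% of all genes in the brm table. Across 13330 genes the slope of the difference on the log2 fold change of brm was 0.12, with a Pearson correlation of 0.13 and a Spearman correlation of 0.15. Genes are not independent replicates, and no p-value belongs to these values.

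**Figure D4:**
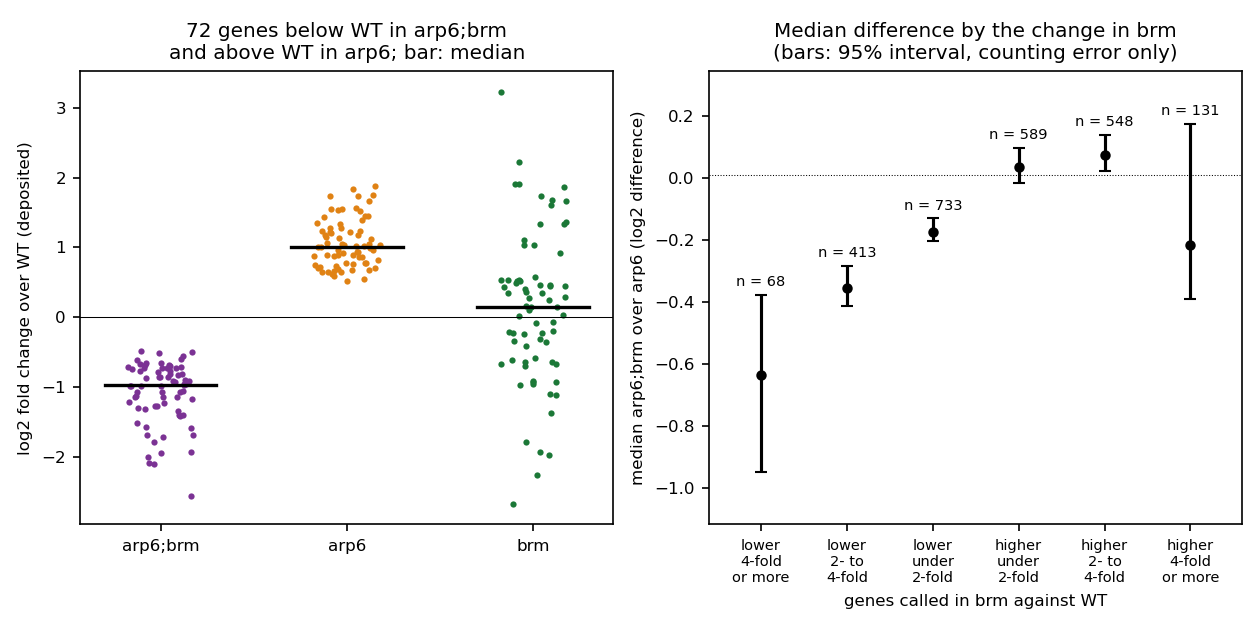
Left, deposited log2 fold changes over WT of the 72 genes called lower in arp6;brm and higher in arp6, with medians of -0.98 in arp6;brm, 1.01 in arp6 and 0.15 in brm as bars. Right, median log2 difference between arp6;brm and arp6 for genes called in brm, by size and direction of the change in brm, with 95% intervals that cover counting error over genes only. The dotted line is the median of all genes, and the medians of the lower classes run to -0.64.

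Genes called in brm with the same sign of difference included, beside BRM, AT1G54740, AT2G29300, RLP19 and SCPL11. Those with the opposite sign included AT5G66052, AT2G06950, AT2G27402, TCH3 and WRKY18. TCH3 and WRKY18 were thus higher in brm than in WT and lower in arp6;brm than in arp6. The difference between these 2 effects was not tested. AT2G06950, AT2G27402 and RLP19 were low in arp6, at 0.0180, 0.0333 and 0.959 CPM, and AT5G66052 in arp6;brm, at 0.00348 CPM.

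Gene groups of known pathways were then examined, and each is described by its count past 2-fold and its median, to be read beside 2.59% higher, 4.27% lower and a median of 0.01 over all genes. Where calls in brm are counted, 9.51% of all genes were called higher in brm and 9.11% lower. Among groups with at least 6 members, the stress ERF and salicylic acid groups had the lowest medians. The stress ERF group holds transcription factors induced within a short time of wounding, ethylene or pathogens. Of 8 members, none was higher and 4 were lower, with a median of -0.97. That median was -0.74 with a minimum average log2 CPM of 0 and -1.34 with a minimum of 2. ERF104 stood at 35.1 CPM in the double mutant and 154 CPM in arp6, beside 35.2 CPM in brm and 56.2 CPM in WT. ERF105 stood at 25.0 CPM in the double mutant and 70.3 CPM in arp6, beside 13.7 CPM in brm and 17.5 CPM in WT. ERF2 (difference -1.20) and ORA47 (difference -1.48) were the others past 2-fold, and ERF6 and ERF5 had differences of -0.74 and -0.37. The other 2 of the 8 members had differences above 0, the highest being 0.64. ERF104 and ERF105 were highest in arp6 of the 4 groups.

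Of 15 members of the salicylic acid group, 6 were lower and 2 higher, with a median of -0.93. WRKY33 stood at 45.8 CPM in the double mutant and 190 CPM in arp6, beside 87.4 CPM in brm and 86.1 CPM in WT. WRKY70 stood at 15.7 CPM in the double mutant and 66.0 CPM in arp6, beside 34.5 CPM in brm and 28.4 CPM in WT. WRKY40 stood at 7.87 CPM in the double mutant and 31.5 CPM in arp6, beside 22.7 CPM in brm and 16.9 CPM in WT. In all 3 the double mutant was the lowest group and arp6 the highest. The others that were lower were WRKY18 and, named after their values were seen, WRKY54 (-1.20) and CBP60G (-1.85), a regulator of salicylic acid synthesis. For WRKY54 the deposited log2 fold change in arp6 is 1.29, with an edgeR adjusted p-value of 0.25, so its error exceeds that of a typical gene. NPR1, a receptor of salicylic acid, had a difference of -0.21, and WRKY53 one of -0.96.

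The 2 genes that were higher were PR1 and PR2, secreted proteins that serve as end points of the response, also named after their values were seen. PR1 stood at 19.8 CPM in the double mutant and 8.09 CPM in arp6, beside 32.0 CPM in brm and 3.10 CPM in WT. PR2 stood at 24.8 CPM in the double mutant and 11.8 CPM in arp6, beside 11.6 CPM in brm and 2.57 CPM in WT. PR1 was called in brm only, where the authors' deposited tables give edgeR adjusted p-values of 0.074 in arp6;brm, 0.72 in arp6 and 0.026 in brm, and PR2 was called in all 3. Both stood above WT in every mutant.

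Jasmonate genes were higher in brm, and were not higher in arp6;brm than in arp6. Jasmonate is a hormone made from membrane lipids after wounding, and JAZ proteins repress its targets and are themselves induced by it. Of 20 members, 16 were called higher and none lower in brm, with a median log2 fold change of 1.65 from the authors' deposited table. Between arp6;brm and arp6 none of the 20 was higher, 5 were lower, and the median difference was -0.42. JAZ1 stood at 15.4 CPM in the double mutant and 58.0 CPM in arp6, beside 110 CPM in brm and 27.0 CPM in WT. JAZ5 stood at 1.48 CPM in the double mutant and 6.38 CPM in arp6, beside 24.4 CPM in brm and 3.46 CPM in WT. LOX4, a lipoxygenase of jasmonate synthesis, stood at 8.78 CPM in the double mutant and 32.1 CPM in arp6, beside 69.9 CPM in brm and 14.5 CPM in WT.

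LOX2, the main leaf lipoxygenase of jasmonate synthesis, stood at 557 CPM in the double mutant and 477 CPM in arp6, beside 1431 CPM in brm and 549 CPM in WT. Its difference was 0.22, where the authors' deposited table gives 1.38 for brm over WT. VSP1 and VSP2, vegetative storage proteins at the end of the response, had differences of -1.75 and -0.56, and VSP1 stood at 5.81 CPM in the double mutant and 19.5 CPM in arp6, beside 33.9 CPM in brm and 49.8 CPM in WT. The fifth gene that was lower was JAZ9 (-1.31), named after its value was seen. Against WT, 1 of the 20 was called higher and 6 lower in arp6;brm, and 2 higher and 5 lower in arp6. Over all genes, 7.34% were called higher and 9.67% lower in arp6;brm, and 3.68% and 3.83% in arp6.

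**Figure D5:**
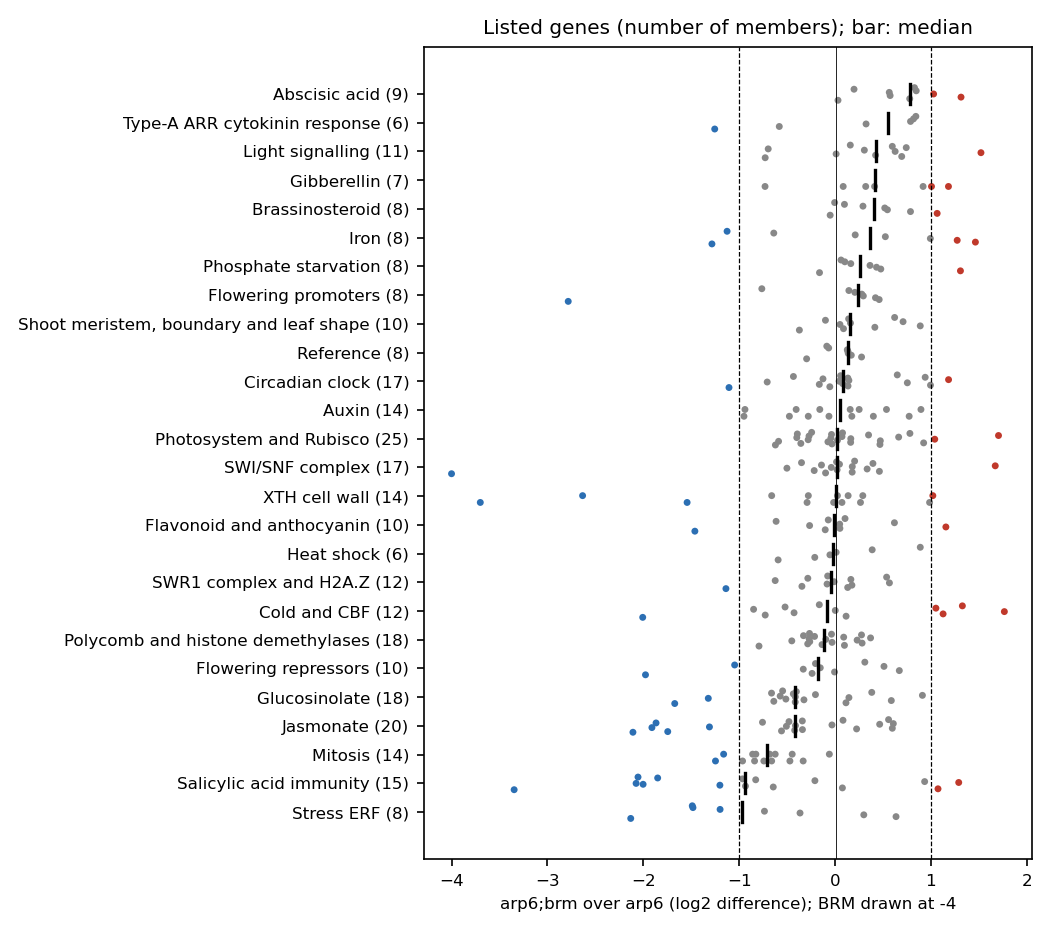
Each point is a gene of the group named on the y axis, placed by its log2 difference between arp6;brm and arp6 on the x axis, with red for higher and blue for lower genes past 2-fold (dashed lines), and a black bar at each group's median. Groups with at least 6 members are drawn, and BRM, at -8.86, is placed at the left edge. The stress ERF and salicylic acid groups lie lowest, with medians of -0.97 and -0.93, and the abscisic acid group highest, with 0.78.

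Of 12 members of the cold group, 4 were higher and 1 was lower, with a median of -0.08. That median depended on the minimum: it was 0.003 with a minimum average log2 CPM of 0 and -0.43 with one of 2. In brm 7 of the 12 were called higher, and their median over WT was 1.64 from the authors' deposited table. KIN2, a cold-induced protein, stood at 98.6 CPM in the double mutant and 29.0 CPM in arp6, beside 121 CPM in brm and 37.7 CPM in WT, and its difference was 1.77, where the authors' deposited table gives 1.68 for brm over WT. KIN1, a near copy of KIN2, and CBF2, a regulator of the cold response, had differences of 1.13 and 1.33. CBF2 stood at 1.8 CPM in the double mutant and 0.73 CPM in arp6, beside 1.6 CPM in brm and 3.3 CPM in WT. It was called in arp6 only. KIN1 stood at 6.2 CPM in the double mutant and 2.8 CPM in arp6. Its deposited log2 fold change in arp6;brm is 1.91, with an edgeR adjusted p-value of 0.013, so its error exceeds that of a typical gene. Reads that match both KIN1 and KIN2 may have been assigned to neither. RD29A, named after its value was seen, had a difference of 1.05 and stood at 72.8 CPM in the double mutant and 35.1 CPM in arp6, against 297 CPM in brm and 30.8 CPM in WT.

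COR47 and ERD10, dehydrins of the cold response, had differences of -0.73 and -0.43. COR47 stood at 133 CPM in the double mutant and 220 CPM in arp6, against 544 CPM in brm and 168 CPM in WT. ERD10 stood at 87.8 CPM in the double mutant and 118 CPM in arp6, against 433 CPM in brm and 142 CPM in WT. ZAT10 was the gene that was lower, at 22.4 CPM in the double mutant and 89.8 CPM in arp6, beside 32.9 CPM in brm and 38.6 CPM in WT.

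The abscisic acid group had the highest median. All 9 members had differences above 0, 2 were higher, none was lower, and the median was 0.78. RAB18, a dehydrin induced by abscisic acid, stood at 6.93 CPM in the double mutant and 2.79 CPM in arp6, beside 8.83 CPM in brm and 3.01 CPM in WT. NCED3, which makes the precursor of abscisic acid, stood at 2.73 CPM in the double mutant and 1.34 CPM in arp6, beside 3.30 CPM in brm and 4.60 CPM in WT. Among the others, the phosphatases PP2CA and HAB2 had differences of 0.03 and 0.20.

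Cell division genes shared a small shift. All 14 members of the mitosis group had differences below 0, with a median of -0.71, but only 2 passed 2-fold. CDC20.1, an activator of the anaphase-promoting complex, stood at 7.01 CPM in the double mutant and 16.6 CPM in arp6, beside 8.12 CPM in brm and 14.4 CPM in WT. CDKB1;2, a mitotic cyclin-dependent kinase, stood at 1.62 CPM in the double mutant and 3.63 CPM in arp6, beside 1.74 CPM in brm and 4.07 CPM in WT. HIK and KN, which act in building the cell plate, had differences of -0.74 and -0.68. For brm over WT the authors' deposited table gave the group a median of -0.72, with 5 members called lower and none higher.

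Flavonoid genes were low in brm and not lower in arp6;brm than in arp6. Of 10 members, 8 were called lower in brm, with a median log2 fold change of -2.08 from the authors' deposited table, while the median difference between arp6;brm and arp6 was -0.01, with 1 gene higher and 1 lower. CHS, which catalyses the entry step of the pathway, stood at 48.6 CPM in the double mutant and 52.2 CPM in arp6, against 9.79 CPM in brm and 44.9 CPM in WT. FLS1, which makes flavonols, stood at 12.4 CPM in the double mutant and 13.0 CPM in arp6, against 4.57 CPM in brm and 12.6 CPM in WT. DFR, which leads into anthocyanins, was the gene that was lower: 2.70 CPM in the double mutant and 7.43 CPM in arp6, beside 0.734 CPM in brm and 22.4 CPM in WT. MYB111, a regulator of flavonol synthesis, was higher, with a difference of 1.16.

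Glucosinolates are sulfur-rich defence compounds of the cabbage family. Of 18 genes, 2 were lower and none was higher, and the median was -0.41. BCAT4, which starts synthesis from methionine, stood at 13.7 CPM in the double mutant and 34.2 CPM in arp6, beside 16.4 CPM in brm and 51.2 CPM in WT. MYB51, a regulator of the indole branch, stood at 8.36 CPM in the double mutant and 26.7 CPM in arp6, beside 13.2 CPM in brm and 10.1 CPM in WT. MAM1 and CYP83A1 had differences of -0.57 and -0.32.

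FLC, the main repressor of flowering, lay below the minimum in the arp6 table and is therefore not among the 13331 genes. Its implied level was 4.82 CPM in the double mutant and 0.444 CPM in arp6, beside 7.42 CPM in brm and 0.481 CPM in WT, so it was high in both groups that lack BRM. Of 10 repressors past the minimum, TEM1 and TEM2 were lower (differences -1.05 and -1.98) and none was higher, with a median of -0.18. TEM2 stood at 3.34 CPM in the double mutant and 13.1 CPM in arp6, beside 12.6 CPM in brm and 15.3 CPM in WT. SVP, a partner of FLC, had a difference of 0.51, and TOE1 one of 0.31.

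Of 8 promoters of flowering, AGL24 alone was lower and none was higher, with a median of 0.24. AGL24, a MADS-box protein that promotes flowering, stood at 0.581 CPM in the double mutant and 4.00 CPM in arp6, beside 0.909 CPM in brm and 5.16 CPM in WT. Its difference was -2.78, where the authors' deposited table gives -2.51 for brm over WT. SOC1 and GI had differences of 0.29 and 0.14.

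Iron genes fell on both sides. PYE, a regulator of iron deficiency, and FRO3, a ferric reductase of mitochondria, were higher, and the ferritins FER3 and FER4, which store iron, were lower, among 8 members with a median of 0.37. FRO3 stood at 19.2 CPM in the double mutant and 7.93 CPM in arp6, beside 25.9 CPM in brm and 8.38 CPM in WT. FER3 stood at 17.6 CPM in the double mutant and 42.8 CPM in arp6, beside 16.3 CPM in brm and 47.5 CPM in WT. In both genes arp6;brm lay near brm, and arp6 near WT. BTS, a ubiquitin ligase of the iron response, and OPT3, an iron transporter, had differences of 0.99 and 0.52.

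Of 14 XTH genes of the cell wall, TCH4, XTH17 and XTH4 were lower and XTH8 was higher, with a median of 0.01. That median was -0.28 with a minimum average log2 CPM of 0 and -0.01 with a minimum of 2. XTH4 stood at 34.8 CPM in the double mutant and 102 CPM in arp6, beside 64.5 CPM in brm and 67.6 CPM in WT. XTH17 stood at 2.06 CPM in the double mutant and 12.7 CPM in arp6, beside 5.11 CPM in brm and 6.94 CPM in WT. XTH8 stood at 25.5 CPM in the double mutant and 12.6 CPM in arp6, beside 17.2 CPM in brm and 9.85 CPM in WT. XTH9 and XTH6 had differences of -0.66 and 0.27.

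Growth hormone groups had medians above 0 with few genes past 2-fold. The gibberellin group had a median of 0.41 over 7 members, with the receptor GID1C and the repressor GAI higher (1.18 and 1.01) and none lower. The brassinosteroid group had a median of 0.41 over 8 members, with the synthesis enzyme DWF4 higher (1.07). GID1C and DWF4 were called against WT neither in arp6;brm nor in arp6. The type-A ARR group of cytokinin response genes had a median of 0.56 over 6 members, but its only gene past 2-fold, ARR5, was lower (-1.25). The light signalling group had a median of 0.42 over 11 members, with the chlorophyll synthesis enzyme PORA higher (1.52). None of 14 auxin genes passed 2-fold and their median was 0.05, and PIN7 and PIN3, which export auxin from cells, had differences of 0.40 and 0.54.

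Photosystem and Rubisco genes changed little, with a median of 0.03 over 25 members and 2 that were higher. LHCB2.2 stood at 155 CPM in the double mutant and 47.5 CPM in arp6, beside 147 CPM in brm and 155 CPM in WT. LHCB2.3 had a difference of 1.04 and was called against WT neither in arp6;brm nor in arp6. Both have near-identical copies, and reads that align at several places were assigned to no gene, so their levels may be too low. The circadian clock group had a median of 0.08 over 17 members. Its gene that was higher was CDF3, at 19.6 CPM in the double mutant and 8.65 CPM in arp6, beside 6.73 CPM in brm and 19.5 CPM in WT. The clock gene RVE2 was lower (-1.11) but was called in neither arp6;brm nor arp6, and PRR5 and PRR7 had differences of 0.04 and 0.14. In the phosphate group, PAP17, an acid phosphatase, was the only 1 of 8 past 2-fold (1.31), the median was 0.26, and PHO2 and SQD1 had differences of 0.36 and 0.10.

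The SWR1 and H2A.Z, SWI/SNF and Polycomb groups had medians of -0.04, 0.02 and -0.12. Among 12 genes of the SWR1 complex and H2A.Z only HTA8, 1 of the genes for H2A.Z, was lower, at 2.44 CPM in the double mutant and 5.37 CPM in arp6, beside 2.49 CPM in brm and 4.41 CPM in WT. HTA9, another H2A.Z gene, had a difference of -0.62, and PIE1, the ATPase of the SWR1 complex, one of 0.17. Among 17 SWI/SNF genes, BRM was lower and AT1G76380 was higher, at 17.8 CPM in the double mutant and 5.58 CPM in arp6, beside 26.4 CPM in brm and 7.16 CPM in WT. SYD, the ATPase closest to BRM, had a difference of 0.18. None of 18 Polycomb and histone demethylase genes, 10 meristem and leaf shape genes, 6 heat shock genes or 8 reference genes passed 2-fold. The medians of the meristem, heat shock and reference groups were 0.15, -0.02 and 0.13. The reference genes UBQ10 and ACT2 had differences of 0.28 and -0.07.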

How the data were processed

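RNA from shoot nuclei (100 ng per library, 36-nt paired reads) was measured in 3 replicates each of arp6;brm, arp6, brm and WT, per the labels' protocols. The authors deposited 1 table per mutant with log2 fold changes over WT, average log2 CPM, p-values and adjusted p-values. TAIR10, TopHat2, HTSeq and edgeR are named in the submitters' processing notes, without roles or versions. Deletions called in arp6 were deposited as positions (start and end) and were counted per chromosome only. Rows that name no gene were left out.

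The difference of log2 fold changes, levels in CPM and approximate standard errors (20 expression bins, from the deposited p-values, taking the spread as equal in all groups and among genes of a bin) were computed in Python (3.11.15) using pandas 2.3.3, scipy 1.17.1 and numpy 2.4.6, and drawn with matplotlib 3.10.9. On simulated data for 13331 genes, 96.0% of 200 genes planted at a log2 difference of 2 passed the threshold of 1. The simulated error was set by a formula and was larger than that read from the deposited p-values. Genes without a planted difference that passed were not counted, so this checks the computation only. No test of the difference was possible without values per library. Nothing per library was available to check replicates against each other, so the authors' p-values are used as they stand.

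Named genes were the 12 highest and 12 lowest differences among genes with an authors' adjusted p under 0.05 in at least 1 of the 2 tables, the 5 largest of each sign among genes also called in brm, and in each gene list up to 4 past the threshold and up to 2 others by expression, with ARP6, BRM and FLC; exceptions are marked. A planned clause on deletions could not be applied, since gene positions on TAIR10 were not used here. For the same reason H2A.Z regions, nucleosome positions and promoter motifs were not analysed here. Names and gene types come from RefSeq (TAIR10.1), which lists 13324 of the 13331 genes. The genes, lists and thresholds were chosen with earlier results of these data known. Alternatives varied the minimum, the threshold, the centring, the scale and the chromosomes used.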

Additional observations from a re-analysis of the deposited data

How the results depend on the processing

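The number of genes past a threshold followed the settings, and the lower genes outnumbered the higher ones except with no minimum. With a minimum average log2 CPM of 0, 577 genes were higher and 761 lower, and with 2, 171 and 398 were. With no minimum, 2146 were higher and 2033 lower, with a median of 0.05 (0.0452). A threshold of 1.5-fold gave 1369 higher and 1530 lower genes, and 1 of log2 2 gave 32 and 108. Read on each table's own scale, 211 genes were higher, the median was -0.14, 43.5% of the genes called higher in brm lay above 0 (37.3% of all genes) and 78.1% of those called lower lay below 0 (62.7% of all genes). Centring set the median to 0, and genes called in at least 1 table had a median of -0.18. Without chromosomes 2 and 5, 188 genes were higher and 328 lower. Fewer genes were left in that setting, and chromosome 2 had the largest shares of higher and lower genes (3.63% and 5.35%). In settings chosen after seeing the data, leaving out chromosome 2 gave 271 higher and 460 lower genes, and leaving out genes beyond log2 4 against WT gave 328 and 558. For SEP3, the only member of the floral organ list, the value was -0.98 when centred and -1.12 on each table's own scale. The other medians of gene lists (105 of 107 values for 27 lists) stayed within the 95% interval of the list's median. That interval is wide in lists of few genes, so staying within it shows little. List medians between 0 and 0.14 turn negative on each table's own scale. The cold group's median was 0.003 at a minimum of 0 and -0.43 at 2. The stress ERF median was -0.74 and -1.34 at these minimums, and the XTH median was -0.28 and -0.01.

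The minimum itself hides genes: 231 genes passed in the arp6;brm table only, of which 122 had a difference of at least 1 and none of -1 or less, and 541 passed in the arp6 table only, of which none and 154 did. No paired analysis was possible because the tables hold no value per library, and leaving out replicates was not run for the same reason. Settings that need gene positions (deletions, H2A.Z regions) were not run either.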

Other observations

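Further gene groups were looked at after the values had been seen, so their counts are descriptions only. The BTB and TAZ domain genes, which act in nutrient and stress signalling, had 4 members past the minimum, and all 4 were lower in arp6;brm than in arp6. BT2 stood at 10.8 CPM in the double mutant and 80.7 CPM in arp6, beside 91.6 CPM in brm and 53.6 CPM in WT, a difference of -2.91. BT1 and BT4 had differences of -2.82 and -1.23. LBD39, a repressor of nitrogen-responsive genes, stood at 2.33 CPM in the double mutant and 23.2 CPM in arp6, beside 3.57 CPM in brm and 21.4 CPM in WT, while its relatives LBD37 and LBD38 had differences of -0.28 and 0.71. Of 4 touch genes, TCH2 (-1.32) was lower past 2-fold like TCH3 and TCH4, and CAM2 had a difference of -0.77. Of 26 WRKY genes, 7 were lower and 2 higher. The 2 that were higher were WRKY57 (1.87) and WRKY23 (1.17).

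The copper and zinc superoxide dismutases CSD1 and CSD2, enzymes that remove superoxide and are targets of the microRNA miR398, were lowest in arp6;brm. CSD2 stood at 11.7 CPM in the double mutant and 49.7 CPM in arp6, beside 34.0 CPM in brm and 92.6 CPM in WT. CSD1 stood at 3.92 CPM in the double mutant and 15.3 CPM in arp6, beside 15.4 CPM in brm and 24.3 CPM in WT. The transcript of MIR398C, a gene for miR398, was highest in arp6;brm, at 13.0 CPM against 4.64 CPM in arp6, 4.42 CPM in brm and 2.93 CPM in WT. CCS, the copper chaperone of these enzymes, had a difference of -0.72. Among the iron enzymes, FSD2 had a difference of 0.49, FSD1 one of -0.29 and FSD3 one of -0.70. CSD3 and MSD1, also of this group, had differences of 0.45 and -0.20.

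Expansins, which loosen cell walls, lay above 0 in contrast to the touch genes. Of 11 EXPA genes past the minimum, 5 were higher and none lower, with a median difference of 0.70. EXPA15, EXPA1 and EXPA10 had differences of 1.73, 1.71 and 1.51. Of 6 genes of the EXORDIUM family, 4 were lower and 1 was higher, and EXO stood at 32.2 CPM in the double mutant and 285 CPM in arp6, beside 67.0 CPM in brm and 77.6 CPM in WT.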
